A study of Mus musculus with 24 samples.

Results

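The cholinergic genes of the mouse motor cortex and dorsal striatum were followed across cell classes, training stages and hemispheres in single-cell RNA data. They were 8 genes taken by symbol from the 54235 features counted in each cell, and all 8 were found. 4 handle acetylcholine: Chat, Slc18a3, Slc5a7 and Ache. The other 4, Chrm1 to Chrm4, encode muscarinic receptors.

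Acetylcholine is made from choline and acetyl-CoA by choline acetyltransferase (Chat), loaded into vesicles by the vesicular acetylcholine transporter (Slc18a3) and, after release, broken down by acetylcholinesterase (Ache). The choline set free is taken back up by the high-affinity choline transporter (Slc5a7). Muscarinic receptors are G-protein-coupled: M1 and M3 (Chrm1, Chrm3) act through Gq and phospholipase C, while M2 and M4 (Chrm2, Chrm4) act through Gi/o and lower cyclic AMP. In the striatum the transmitter comes mainly from a sparse class of large local interneurons, and in the cortex mainly from basal forebrain axons, whose cell bodies lie outside a cortical dissection.

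Mice were TRAP animals, in which a neuron that is active while 4-hydroxytamoxifen (4-OHT) is present recombines the Ai9 reporter and stays marked. Motor cortex came from Fos-CreER::Ai9 mice and dorsal striatum from Arc-CreER::Ai9 mice, so that region and driver line cannot be told apart. Early mice had 2 days and late mice 8 days of a forelimb reaching task before labelling. Control mice had 4-OHT and no training, and all tissue was taken 3 days after labelling. Ages were not given in the sources used here. Each hemisphere library pooled 2 mice, marked M and F. The 2 hemispheres of the same mice make 1 pool, so that 24 libraries give 12 pools and every stage has 2 per region. The pool was the replicate throughout.

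After filtering, 98612 cells remained in 23 libraries, 47985 from motor cortex and 50627 from striatum, with 467 to 6606 cells per library and library medians of 2048 to 5725 UMIs (unique molecular identifiers, 1 per captured RNA molecule). The right hemisphere of striatal control replicate 1 was not analysed here. Shared cell barcodes split the libraries into 2 classes, called A (replicate 1 of control and late in each region) and B (all others). Libraries of class A shared a median of 1.33 barcodes per 1000000 pairs of barcodes and those of class B 0.252, against 0.0206 between the classes. The labels name 2 kit versions without assigning them to libraries, and the class A libraries carry batch labels that no class B library has. No pair of libraries shared more than 1.55% of the smaller one's barcodes. Levels are given as CPM, the UMIs of a gene per 1000000 UMIs of all genes, summed over the cells of a class in a pool. Reads came from the 3′ ends of transcripts, so levels are compared between cells and not between genes.

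Cell classes were rebuilt from marker genes after clustering without the 8 genes, and each is called "-like" for that reason. The class that the cholinergic genes turn on, the cholinergic-like striatal interneurons, held 226 cells. Among its markers, pooled levels reached 1136 CPM for Ecel1, 808 CPM for Slc10a4, 491 CPM for Slc17a8, 327 CPM for Lhx8 and 278 CPM for Isl1. Zic4 and Gbx2 were lower, at 44.4 and 30.8 CPM, and Gbx1 was at 1.33 CPM. 180 of the cells formed a cluster with a median of 17959 UMIs and 46 a shallow one with a median of 1732 UMIs.

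Chat, Slc18a3 and Slc5a7 were all highest in these interneurons, in every pool. Chat and Slc18a3 share a locus on chromosome 14, in which the whole of Slc18a3 (chr14:32462438-32464850, minus strand, GRCm38, GENCODE M21) lies inside the first intron of Chat (chr14:32408203-32465989, minus strand). Slc5a7 lies on chromosome 17 (chr17:54273590-54299034, minus strand). The RefSeq start windows of these 3 genes (250 bases before to 50 after the start, GRCm38.p6) are shown because the genes stood together in 1 class. Their positions are chr14:32465860-32466159 for Chat, chr14:32464801-32465100 for Slc18a3 and chr17:54298985-54299284 for Slc5a7, each read on the minus strand. Capitals mark 3 motifs on either strand: TAAT, the core that homeodomain proteins read, the E-box CACGTG and the GC box GGGCGG.
Chat: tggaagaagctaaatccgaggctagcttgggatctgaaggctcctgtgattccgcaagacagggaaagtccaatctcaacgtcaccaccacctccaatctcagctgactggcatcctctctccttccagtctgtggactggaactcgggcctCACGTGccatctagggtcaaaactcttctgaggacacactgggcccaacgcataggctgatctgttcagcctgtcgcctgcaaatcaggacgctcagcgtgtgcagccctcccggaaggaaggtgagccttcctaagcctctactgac
Slc18a3: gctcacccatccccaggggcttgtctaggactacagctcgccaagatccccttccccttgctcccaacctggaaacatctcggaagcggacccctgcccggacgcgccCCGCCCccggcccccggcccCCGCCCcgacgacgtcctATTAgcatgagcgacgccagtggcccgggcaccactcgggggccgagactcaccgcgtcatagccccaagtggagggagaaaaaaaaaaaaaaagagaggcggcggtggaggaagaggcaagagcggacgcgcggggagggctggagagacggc
Slc5a7: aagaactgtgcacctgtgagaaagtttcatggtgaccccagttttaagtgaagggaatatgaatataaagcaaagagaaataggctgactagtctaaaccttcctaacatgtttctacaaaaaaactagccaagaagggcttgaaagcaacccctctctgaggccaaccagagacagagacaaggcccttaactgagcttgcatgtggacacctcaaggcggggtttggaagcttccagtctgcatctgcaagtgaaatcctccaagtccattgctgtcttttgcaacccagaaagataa

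The starts of Chat and Slc18a3 were 1059 bases apart. TAAT stood once in the Slc18a3 window and in neither of the other two, against 58.0% of 32851 windows of this length. GGGCGG stood in the Slc18a3 window 2 times, against 35.7% of all windows with it. CACGTG stood once in the Chat window, against 7.15% of all. The longer homeodomain motifs TAATTA (5.29% of all windows) and CTAATG (7.36%) were in none of these 3 windows. The windows were 55.7%, 67.0% and 44.7% G and C for Chat, Slc18a3 and Slc5a7, against a median of 52.7%.

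In the cholinergic-like cells Chat had 267, 266, 289, 304, 180 and 229 CPM in control pools 1 and 2, early pools 1 and 2 and late pools 1 and 2. The mean was 256 ± 45.2 CPM (SD, n = 6). Slc18a3 had 524, 554, 404, 418, 494 and 512 CPM in the same order, a mean of 484 ± 60.2 CPM (SD, n = 6). The next highest class for both genes, the cortical Vip-like cells, did not overlap these ranges.

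Slc5a7 had 1592, 2565, 2943, 2514, 1509 and 2449 CPM in the same order of pools, a mean of 2262 ± 578 CPM (SD, n = 6). The lowest 2 values were the pools of library class A, at 1509 to 1592 CPM against 2449 to 2943 CPM in class B. Ache ran evenly, at 759, 751, 806, 684, 676 and 713 CPM, a mean of 731 ± 49.6 CPM (SD, n = 6).

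**Figure D1:**
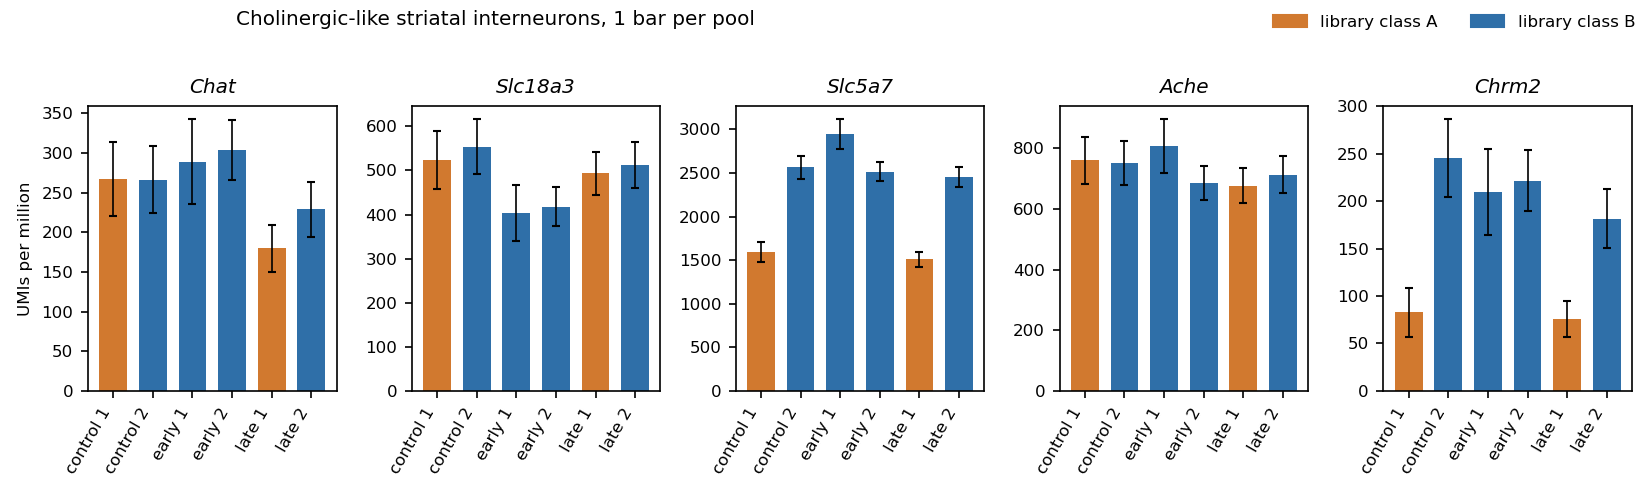
CPM of 5 genes in the cholinergic-like interneurons, 1 bar per striatal pool, with approximate 95% counting intervals. Slc5a7 and Chrm2 were lower in the 2 pools of library class A (orange) than in the 4 of class B (blue).

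Detection per cell followed the same genes. Of the 226 cells, 98.2% held a UMI of Slc5a7, 87.2% of Slc18a3, 86.3% of Ache and 81.9% of Chat. Microglia-like cells, which should lack these genes, held Slc5a7 in 0.321% of cells in striatum and Chat in 0.0601%, at a median depth of 1824 UMIs. All 3 presynaptic genes were seen together in 175 cells (77.4%, 95% exact binomial interval 71.4% to 82.7%, counting error only), and none of the 3 in 2 cells. Cells with all 3 had a median of 18446 UMIs and cells with Slc5a7 alone a median of 1702 UMIs. Thinned to 1000 UMIs per cell, 80.5% still held Slc5a7, 42.9% Ache, 35.4% Slc18a3 and 18.1% Chat.

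Against D1 and D2 spiny-like neurons, the projection neurons of the striatum, 7 of the 8 genes passed the test, 5 higher and 2 lower. In that comparison 67.2% of 15894 genes were called, so that a call alone sets no gene apart. The sizes were large: Slc5a7 was higher by 12.34 ± 0.09 on the log2 scale (± SE), Slc18a3 by 12.18 ± 0.12 and Chat by 9.70 ± 0.14. Ache was higher by 4.76 ± 0.05 (edgeR adjusted p = 2.44e-66). Each of these 4 was higher in 6 of 6 pools. The spiny-like classes held 25 Chat, 40 Slc5a7 and 7 Slc18a3 UMIs in all.

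Against the other striatal interneurons (Pvalb/Pthlh-like and Sst/Npy-like), 6 of 6 genes tested were called, where 52.6% of 10257 genes were called. Chat had 947 UMIs in the cholinergic-like cells and 0 in the others, at least 996-fold higher with a floor of 3 UMIs over the group. Slc18a3 had 1822 against 2 UMIs, a ratio of 2874 (counting interval 795 to 23753). Slc5a7 was higher by 12.75 ± 0.14 on the log2 scale, with 8379 against 4 UMIs. Ache was higher by 2.36 ± 0.07, since the other interneurons also carried it.

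The muscarinic genes of the cholinergic-like cells were narrower. Chrm2, the Gi/o-coupled autoreceptor of cholinergic neurons, had 82.7, 245, 210, 222, 75.4 and 181 CPM in the order of pools above, a mean of 169 ± 72.9 CPM (SD, n = 6). It was higher than in spiny-like neurons by 9.22 ± 0.16 on the log2 scale (edgeR adjusted p = 6.46e-55), and higher than in the other interneurons by 1.06 ± 0.09 (edgeR adjusted p = 5.78e-16), in 6 of 6 pools each time. Its low values were again the class A pools, 75.4 to 82.7 CPM against 181 to 245 CPM in class B. Among class means it ranked first, but its range overlapped that of the near-projecting-like cortical neurons in second place.

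Chrm1 had 3 UMIs in all 226 cells against 9858 in the spiny-like neurons, a ratio of 0.00727 (counting interval 0.00150 to 0.0213). Chrm3 had 0 UMIs, which with a floor of 3 UMIs over the group allows up to 0.797 CPM. D2-like cells held 958 Chrm3 UMIs (20.9 CPM), while D1-like cells, at 0.724 CPM, lay under that floor as well, so that no fold can be given against them. The other interneurons held 200 Chrm3 UMIs, and the cholinergic-like cells were at least 21.1-fold lower. Chrm4, known as a second autoreceptor of these neurons, had 3 UMIs (0.797 CPM), at the floor of 3 UMIs, with 3 of 6 pools at 0. D1-like cells had 5.63 CPM and D2-like cells 0.153 CPM, and a place above the D2-like cells is not shown at this count. Against both together its ratio was 0.280 (counting interval 0.0574 to 0.828), and 0 of 6 pools were higher. The fitted difference from the mean of both classes was -0.13 ± 1.70 on the log2 scale (edgeR adjusted p = 0.952).

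**Figure D2:**
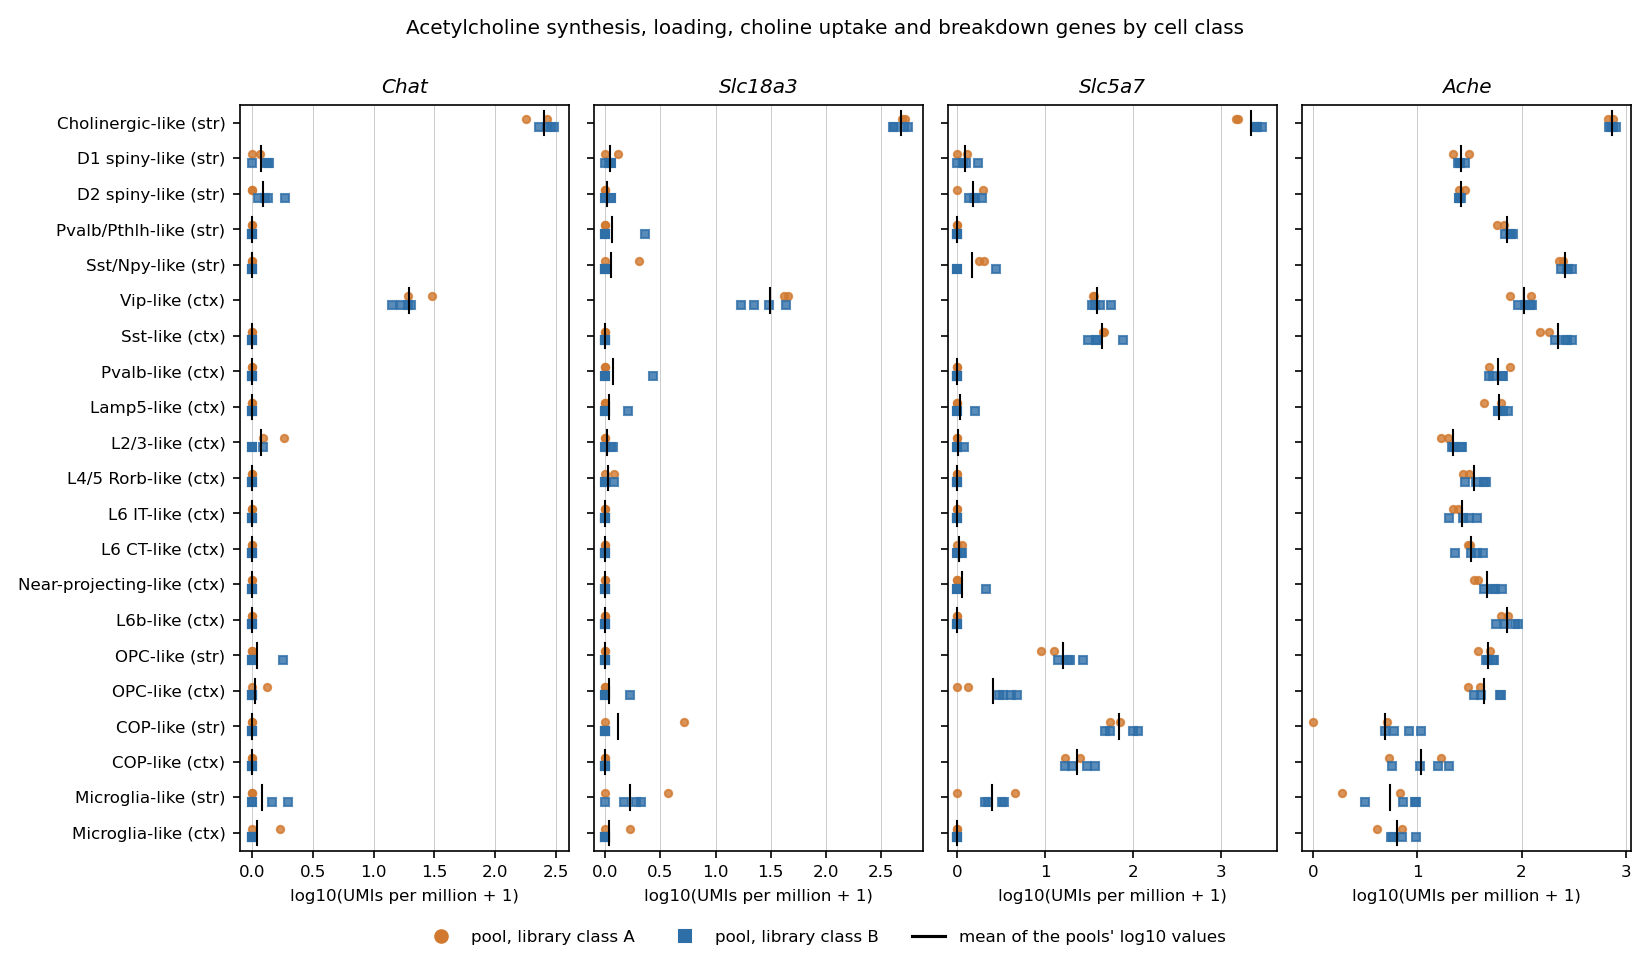
Levels of the 4 acetylcholine-handling genes in 21 cell classes (str, striatum; ctx, motor cortex), each point 1 pool, on an axis of log10(CPM + 1); bars are means of the pools' log10 values. Chat and Slc18a3 stand up in the cholinergic-like and cortical Vip-like cells, Slc5a7 also in Sst-like cells and in committed oligodendrocyte precursors (COP). Ache stands up in all neurons and also in oligodendrocyte precursors (OPC).

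A second set of cells with acetylcholine-handling transcripts was cortical. Vip-like interneurons (1825 cells), which mainly inhibit other interneurons, held Chat, Slc18a3 and Slc5a7, each far below the cholinergic-like cells. Chat had 29.1, 19.5, 15.8, 13.1, 18.2 and 18.1 CPM in control pools 1 and 2, early pools 1 and 2 and late pools 1 and 2, a mean of 18.9 ± 5.44 CPM (SD, n = 6). Slc18a3 had 44.4, 42.2, 29.3, 21.3, 40.6 and 16.1 CPM, a mean of 32.3 ± 11.9 CPM (SD, n = 6). Slc5a7 lay between 33.1 and 54.8 CPM in all 6 pools.

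Against the mean of the Lamp5-like, Sst-like and Pvalb-like interneurons, 6 of 7 genes tested were called, where 46.1% of 11486 genes were called. Chat had 199 UMIs in Vip-like cells and 0 in the other 3 classes, at least 113-fold higher. Slc18a3 had 357 against 2 UMIs, a ratio of 303 (counting interval 83.4 to 2516). Slc5a7 was higher by 5.39 ± 0.27 on the log2 scale (edgeR adjusted p = 9.92e-25), against a mean in which Pvalb-like cells held 0 UMIs and Lamp5-like cells 1. With UMIs pooled it had 434 against 228, a ratio of 3.24. It was higher than each of the other classes in only 1 of 6 pools, because the Sst-like cells also carried it. Chrm3 was higher than that mean by 1.22 ± 0.11 (edgeR adjusted p = 8.85e-15), and higher than each of the other classes in 3 of 6 pools, with 49.4 CPM in Vip-like and 55.1 CPM in Sst-like cells.

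Chrm2 was lower in Vip-like cells at -3.69 ± 0.53 on the log2 scale (edgeR adjusted p = 2.77e-08), with 12 UMIs against 617. It stood at 1.05 CPM there, against 87.2 CPM in Sst-like and 67.1 CPM in Pvalb-like cells, but Lamp5-like cells had less still, at 0.240 CPM (5 UMIs). Without early replicate 1 that call was lost (-3.21, edgeR adjusted p = 0.982). Ache was higher than the mean of the other classes by 0.23 ± 0.08 (edgeR adjusted p = 0.0162), although Sst-like cells had more (229 against 107 CPM) and Vip-like cells were highest in 0 of 6 pools. It is a call that DESeq2 did not make (adjusted p = 0.0534) and that was lost without late replicate 1 or early replicate 2 (edgeR adjusted p = 0.141 and 0.0568). Chrm1 did not pass, at -0.15 ± 0.13 (edgeR adjusted p = 0.332).

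Within the Vip-like cells the 3 genes were uneven. A cluster of 498 cells led by Sema5b, Rspo1 and Ostf1 had 53.2 ± 9.85 CPM of Chat, 88.0 ± 30.5 CPM of Slc18a3 and 125 ± 36.8 CPM of Slc5a7 (SD, n = 6 pools). A cluster of 276 cells led by C1ql2, Thsd7b and Igfbp6, with Penk and Calb2 among its leading genes, had 0 UMIs of Chat and of Slc18a3. A cluster of 254 cells led by Cadps2 and Sncg had 0 UMIs of Slc5a7 and 1 of Chat. These differences between clusters are described and were not tested.

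The 3 genes also met within single Vip-like cells. Of 139 cells with a Chat UMI, 58.3% also held Slc18a3, against 8.78% of 1686 cells without Chat. The shares with Slc5a7 were 51.8% and 12.5%. All 3 were seen in 47 cells (2.58%), and none in 75.8%. Slc18a3 lies inside Chat on the same strand, and the part of shared reads in their joint detection was not tested. The 82 Vip-like cells of the striatum had 0 UMIs of Chat, 1 of Slc18a3 and 9 of Slc5a7.

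Slc5a7 marked part of the cortical Sst-like interneurons, where the genes for making and loading acetylcholine were not seen. In 521 Sst-like cells it had 45.9, 38.3, 37.2, 29.7, 45.1 and 75.5 CPM in control pools 1 and 2, early pools 1 and 2 and late pools 1 and 2. Chat and Slc18a3 had 0 UMIs in all 521 cells. All 227 Slc5a7 UMIs came from 1 cluster of 138 cells led by Ptn, Chodl and Nos1, with Crhbp, Hhip and Tacr1 among its leading genes. There the level was 136 ± 41.2 CPM (SD, n = 6) and 53.6% of cells held a UMI. The other 3 Sst-like clusters, of 164, 125 and 94 cells, had 0.

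The same cluster was high in Chrm2, at 226 ± 86.4 CPM (SD, n = 6) in 87.0% of its cells, and in Ache, at 358 ± 130 CPM. In the other Sst-like clusters Chrm2 lay at 6.63, 9.14 and 36.9 CPM. Chrm3 ran the other way, at 19.5 ± 7.29 CPM in the Chodl and Nos1 cluster against 69.7, 71.7 and 72.1 CPM in the others. The 8 genes had no part in the clustering, but transcripts that overlap them, such as 9330158H04Rik at the start of Chrm2, were not left out. No test was run between the clusters.

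The striatal Sst/Npy-like interneurons (882 cells), whose 2 clusters also had Nos1 and Chodl among their leading genes, did not share the transporter. They held 4 Slc5a7 UMIs in all, against 227 in the cortical class. Their Chrm2 was 100 ± 39.0 CPM and their Ache 261 ± 27.1 CPM (SD, n = 6). Region and driver line cannot be told apart in this comparison.

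Against Pvalb-like cells, the fast-spiking interneurons of the cortex, 5 of 5 genes tested were called in Sst-like cells, where 35.4% of 9553 genes were called. Slc5a7 was at least 35.8-fold higher (227 against 0 UMIs). Ache was higher by 2.06 ± 0.13 on the log2 scale (edgeR adjusted p = 7.81e-19) and Chrm3 by 2.14 ± 0.23 (edgeR adjusted p = 1.30e-10), both in 6 of 6 pools. Chrm2 was higher by 0.41 ± 0.15 (edgeR adjusted p = 0.0238), a call that was lost with DESeq2 (adjusted p = 0.103) and without control replicate 1, late replicate 1 or late replicate 2 (edgeR adjusted p = 0.0529, 0.0904 and 0.0656). By mean level, only the Chodl and Nos1 cluster lay above the 67.1 CPM of Pvalb-like cells. The other Sst-like clusters lay below it. Chrm1 was at -0.64 ± 0.24 (edgeR adjusted p = 0.0283), also lost with DESeq2 (adjusted p = 0.242), with no filter on low counts (0.0523) and without control replicate 2 (-0.35, edgeR adjusted p = 0.377) or early replicate 2 (0.0933).

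**Figure D3:**
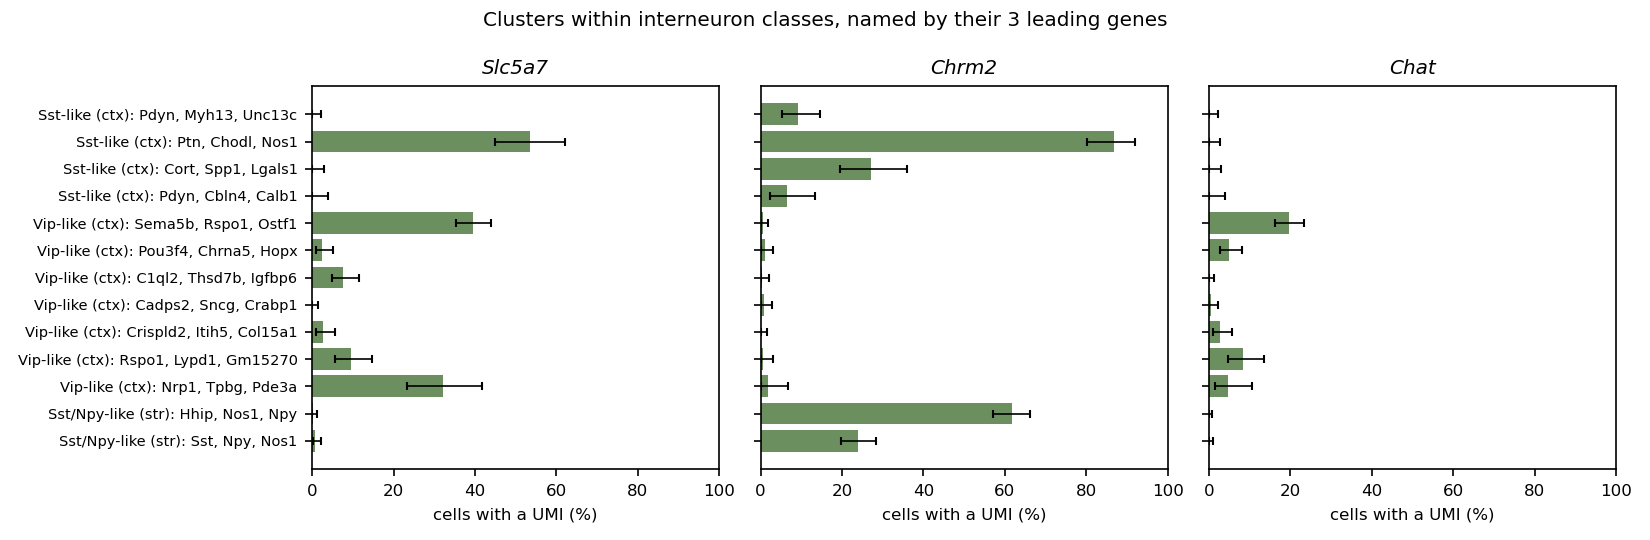
Share of cells with a UMI of Slc5a7, Chrm2 and Chat in the clusters of 3 interneuron classes, each named by its 3 leading genes, with exact binomial 95% intervals for counting error. Slc5a7 reached 53.6% in 1 of 4 cortical Sst-like clusters and was at 0 in the other 3.

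Among the spiny-like neurons of the striatum, D1 cells (8784) and D2 cells (9885) differed in Chrm4 and Chrm3 and had close levels of Chrm1 and Ache. 2 of 4 genes tested were called, where 27.1% of 15423 genes were called. Chrm4 had 0.996, 5.17, 8.19, 7.09, 0.756 and 6.86 CPM in D1-like cells of control pools 1 and 2, early pools 1 and 2 and late pools 1 and 2. D2-like cells reached at most 0.284 CPM, and the ranges did not overlap. With 249 against 7 UMIs the difference was 4.99 ± 0.30 on the log2 scale (edgeR adjusted p = 5.97e-19), higher in 6 of 6 pools.

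Chrm4 was sparse everywhere. It was seen in 2.77% of D1-like cells, and its low pools were those of library class A (0.756 to 0.996 CPM, against 5.17 to 8.19 CPM in class B). The gene model of Chrm4 in GENCODE M21 covers only the coding sequence (chr2:91927249-91928688, plus strand, GRCm38), and the RefSeq gene runs 1147 bases past its 3′ end. That distance was at most 224 bases for the other 7 genes. The annotation behind the counts was not given in the sources used here, and the part of this distance in the level was not tested.

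Chrm3 was the mirror image, at 21.4, 20.1, 26.0, 18.9, 16.0 and 21.5 CPM in D2-like cells and 0.454 to 1.57 CPM in D1-like cells. The difference was -4.87 ± 0.15 on the log2 scale (D1 minus D2, edgeR adjusted p = 1.33e-29), lower in D1-like cells in 6 of 6 pools. Chrm1 had 112 ± 3.22 CPM in D1-like and 108 ± 7.64 CPM in D2-like cells (SD, n = 6), a difference of 0.02 ± 0.03 (edgeR adjusted p = 0.752). Ache differed by -0.02 ± 0.06 (edgeR adjusted p = 0.906). The eccentric-like spiny neurons, a smaller class marked by Otof and Casz1, carried Chrm1 at 130 ± 36.7 CPM. They held both Chrm4, at 4.65 ± 4.13 CPM (63 UMIs), and Chrm3, at 4.57 ± 4.49 CPM (61 UMIs). Their 2 class A pools held only 14 and 12 cells.

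**Figure D4:**
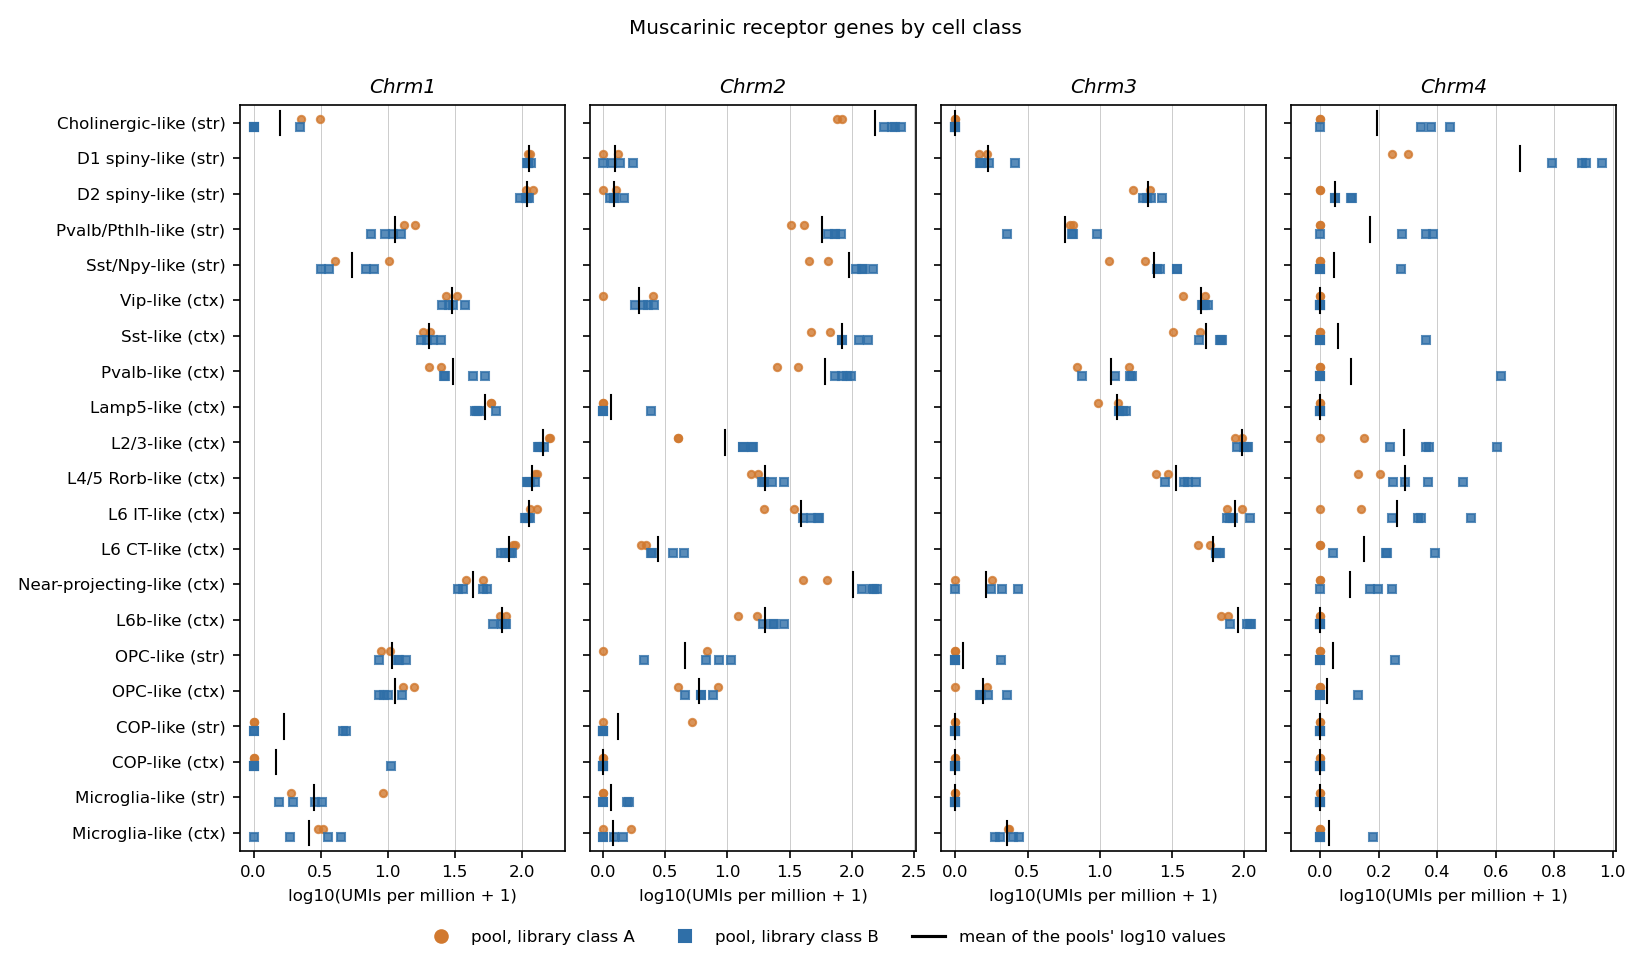
Levels of Chrm1 to Chrm4 in 21 cell classes (str, striatum; ctx, motor cortex), each point 1 pool, on an axis of log10(CPM + 1); bars are means of the pools' log10 values. D1 and D2 spiny-like cells separate in Chrm3 and Chrm4 but not in Chrm1, and near-projecting-like cells have high Chrm2 with almost no Chrm3.

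In the cortex the receptors differed in level among the classes of glutamatergic neurons, also within a layer. Chrm1 was highest in L2/3-like neurons (145 ± 13.1 CPM, SD, n = 6), then L4/5 Rorb-like (118 ± 8.06 CPM), L6 intratelencephalic-like (113 ± 8.23 CPM), L6 corticothalamic-like (80.1 ± 7.36 CPM) and L6b-like (70.5 ± 5.94 CPM). All 6 L2/3-like pools lay above all 6 L4/5-like pools, and the 6 L6 intratelencephalic-like pools above the 6 corticothalamic-like ones. The L4/5-like and L6 intratelencephalic-like pools overlapped, as did the corticothalamic-like and L6b-like ones. Near-projecting-like neurons, a deep class with mostly local axons, were below all of these, at 43.3 ± 9.16 CPM.

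Chrm3 followed another order. L2/3-like (95.9 ± 7.64 CPM), L6b-like (90.6 ± 18.6 CPM) and L6 intratelencephalic-like neurons (85.7 ± 13.6 CPM) overlapped at the top, L6 corticothalamic-like cells had 60.5 ± 7.54 CPM and L4/5 Rorb-like cells 33.5 ± 8.39 CPM. The near-projecting-like neurons stood apart with 0, 1.71, 0, 1.12, 0.790 and 0.757 CPM in control pools 1 and 2, early pools 1 and 2 and late pools 1 and 2. In the other glutamatergic classes named here no pool was below 23.5 CPM.

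Chrm2 was highest among the cortical glutamatergic classes in the near-projecting-like neurons, where Chrm3 was almost missing. These neurons (1101 cells) had 62.4, 119, 143, 157, 39.5 and 150 CPM in the same order of pools, the low values again in class A. Within them, a cluster of 497 cells had 176 ± 61.9 CPM and one of 467 cells 35.3 ± 11.0 CPM (SD, n = 6). L6 intratelencephalic-like cells had 40.5 ± 13.1 CPM, L6b-like 19.7 ± 5.63 CPM, L4/5 Rorb-like 19.4 ± 4.60 CPM, L2/3-like 10.1 CPM and L6 corticothalamic-like 1.87 CPM on average.

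Across all cortical neurons, 7 of 8 genes were called between glutamatergic and GABAergic cells, where 68.9% of 17598 genes were called. Chrm1 was higher in glutamatergic cells by 1.63 ± 0.06 on the log2 scale (edgeR adjusted p = 2.77e-21) and Chrm3 by 0.99 ± 0.06 (edgeR adjusted p = 1.20e-15), in 6 of 6 pools. Chrm4 had 104 against 2 UMIs, a ratio of 11.8 (counting interval 3.18 to 98.4). Ache was lower in glutamatergic cells, at -1.56 ± 0.06 (edgeR adjusted p = 6.13e-21). Chat, Slc18a3 and Slc5a7 had 7, 5 and 6 UMIs in all glutamatergic cells against 204, 370 and 680 in the interneurons. Chrm2 did not pass, at 0.20 ± 0.10 (edgeR adjusted p = 0.0772), though it did with no filter on low counts (0.28, edgeR adjusted p = 0.00226) and without control replicate 1, late replicate 1 or late replicate 2 (0.23 to 0.27).

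The deep classes (L5 Fezf2/Bcl11b-like and L6 corticothalamic-like) were set against L2/3-like neurons over the 5 pools with enough cells, early replicate 1 being left out. 4 of 4 genes tested were called, where 36.1% of 13936 genes were called. Chrm1 was lower in the deep classes, at -0.995 ± 0.10 on the log2 scale (edgeR adjusted p = 1.50e-21), as was Chrm3, at -0.73 ± 0.11 (edgeR adjusted p = 1.02e-09), and Ache was higher by 0.89 ± 0.16 (edgeR adjusted p = 4.74e-07). With UMIs summed over all pools, Ache stood at 33.2 CPM over the deep classes and 22.0 CPM in L2/3-like neurons, and in 4 of 5 pools both deep classes lay above the L2/3-like neurons. Its level in the 74 L5-like cells was uneven, at 49.8 ± 43.6 CPM (SD, n = 5), with 1 pool at 0. Chrm2 was at -1.85 ± 0.34 (edgeR adjusted p = 8.05e-07), but the 3 Chrm2 UMIs of the L5-like cells came from early replicate 2. Without that pool the value was -5.19, with a stricter cell filter -5.20, and without control replicate 2 -1.20.

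Slc5a7 was also seen outside neurons, in the oligodendrocyte lineage. Committed oligodendrocyte precursors (COP-like cells, marked by Bmp4, Gpr17 and Enpp6), the stage between precursor (OPC) and myelinating cell, had 69.5, 54.7, 98.9, 113, 54.3 and 47.7 CPM in striatal control pools 1 and 2, early pools 1 and 2 and late pools 1 and 2. In motor cortex they had 16.0, 16.0, 35.7, 29.4, 23.8 and 19.2 CPM. All 6 striatal pools lay above all 6 cortical pools. A UMI was seen in 17.8% of 455 striatal and 7.17% of 544 cortical COP-like cells.

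OPC-like cells had less, with 15.8 ± 6.26 CPM in striatum and 1.94 ± 1.52 CPM in cortex (SD, n = 6). In each region every COP-like pool lay above every OPC-like pool. Between regions the difference was -1.61 ± 0.26 in COP-like cells (cortex minus striatum, log2, edgeR adjusted p = 2.96e-04, 1 of 15 genes called of 5916, or 0.254%). In OPC-like cells it was -2.92 ± 0.33 (edgeR adjusted p = 4.97e-06, among 1.06% of 12091 genes called). In oligodendrocyte-like cells the levels were uneven, at 18.1 ± 30.2 CPM in striatum and 7.49 ± 15.03 CPM in cortex, with several pools at 0.

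The other presynaptic genes were seen in few of these cells. COP-like cells held 0 Chat UMIs in both regions and 1 Slc18a3 UMI, beside 108 Slc5a7 UMIs in striatum and 46 in cortex. OPC-like cells held 97 Slc5a7, 0 Slc18a3 and 1 Chat UMIs in striatum, and 25, 2 and 1 in cortex. Striatal microglia-like cells held 17, 8 and 3. The cholinergic-like cells, a class of the striatum only, held 8379 Slc5a7 and 1822 Slc18a3 UMIs. Whether RNA of other cells is among the counts given here was not tested. Microglia-like cells, at the depth given above in striatum and a median of 1821 UMIs in cortex, held Slc5a7 in 0.321% of cells in striatum and in 0 of 10179 in cortex, which allows a share of up to 0.0295%.

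Ache was highest at the OPC stage of the lineage. It was at 47.1 and 44.5 CPM in OPC-like cells of striatum and cortex, 5.06 and 11.4 CPM in COP-like cells and 1.41 and 0.530 CPM in oligodendrocyte-like cells. In each region the OPC-like pools lay above all COP-like pools. These steps along the lineage were not tested.

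**Figure D5:**
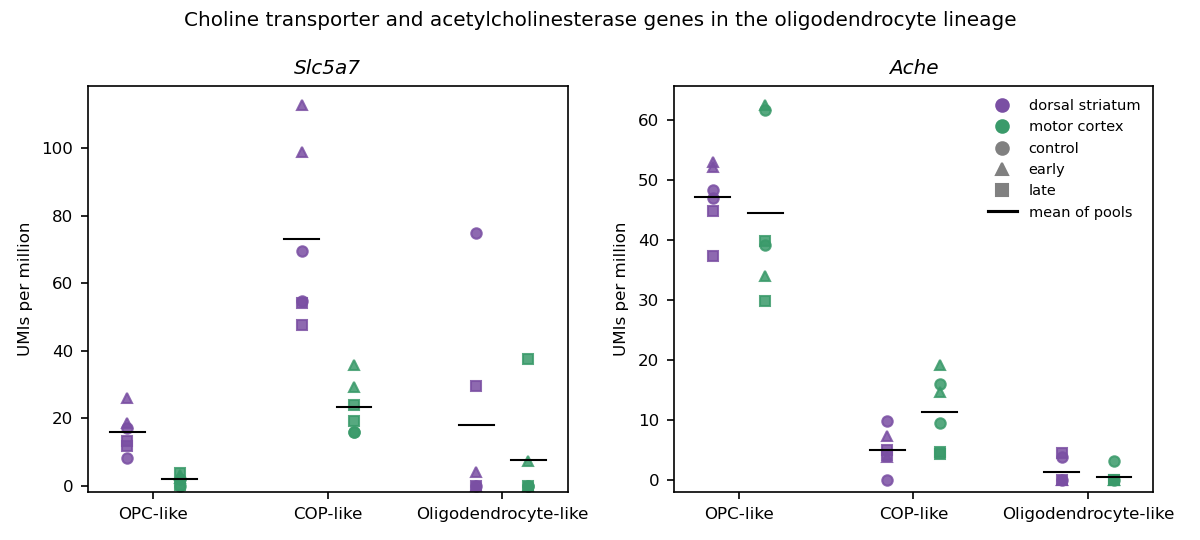
CPM of Slc5a7 and Ache in the oligodendrocyte lineage, each point 1 pool, coloured by region and shaped by stage, with the mean of the pools as a bar. Slc5a7 peaks in committed precursors (COP-like), where all striatal pools lie above all cortical pools, while Ache is highest in OPC-like cells.

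Over all classes that both regions share, 9 of 13 gene and class pairs tested were called between regions, where 11.9% of 70545 were called. 7 of the 9 came from the GABAergic interneurons taken as 1 class, of which 33.3% of 13175 genes were called. Chat had 204 UMIs in the cortical and 0 in the striatal interneurons, at least 30.1-fold higher in cortex with a floor of 3 UMIs over the group. Slc18a3 had 370 against 3 UMIs, a ratio of 54.5 (counting interval 18.5 to 265.5). Cortical interneurons also had more Slc5a7 (2.54 ± 0.25, log2), Chrm1 (2.09 ± 0.14) and Chrm3 (1.05 ± 0.12), and less Ache (-0.91 ± 0.10) and Chrm2 (-2.31 ± 0.11). The mix of interneuron classes differs between the regions. Vip-like cells were 1825 in cortex and 82 in striatum, and cortex also held 1387 Lamp5-like cells. The striatal cholinergic-like cells were not counted among the GABAergic ones. With UMIs pooled, Chrm2 stood at 64.8 CPM in cortical Pvalb-like and 63.6 CPM in striatal Pvalb/Pthlh-like cells. It stood at 85.9 CPM in cortical Sst-like and 102 CPM in striatal Sst/Npy-like cells. Vip-like cells had 1.06 CPM of it (12 UMIs) in cortex and 17.7 CPM (12 UMIs) in striatum. The part of the mix in these region differences was not tested. The other 3 genes tested in OPC-like cells, and the 1 tested in microglia-like cells, were not called.

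By training stage none of the 8 genes passed the threshold. In motor cortex, 0 of 44 gene and class pairs were called early against control, late against control or late against early, where 0.0235%, 0.0321% and 0.0143% of all pairs were called. In striatum it was 0 of 22 each time, where 0.0726%, 0.0457% and 0.0208% were called. Pairs at an unadjusted p under 0.05 numbered 2, 2 and 2 in cortex and 1, 0 and 2 in striatum with edgeR, and 0 in each with DESeq2, which also called 0. The 3 comparisons of a region share pools.

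The pair with the smallest unadjusted p was Slc5a7 in striatal COP-like cells, where the early pools (98.9 and 113 CPM) lay above the control (69.5 and 54.7 CPM) and late pools (54.3 and 47.7 CPM). Late against early the difference was -1.16 ± 0.35 on the log2 scale (edgeR adjusted p = 0.405). In the cholinergic-like cells Chat late against early was -0.48 ± 0.21 (edgeR adjusted p = 0.923), and the late pools, at 180 and 229 CPM, lay under the other 4. In cortical Sst-like cells Slc5a7 late against early was 0.94 ± 0.34 (edgeR adjusted p = 1.00), and in Vip-like cells Slc18a3 late against control was -0.70 ± 0.31 (edgeR adjusted p = 0.991). None of these passed the adjustment over all genes of the class.

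No member was called by hemisphere either. Between the hemispheres contralateral and ipsilateral to the trained limb, 0 of 39 pairs in cortex and 0 of 14 in striatum were called, where 0.0230% and 0.0245% of all pairs were called. With edgeR 3 and 0 pairs had an unadjusted p under 0.05, and with DESeq2 0 and 0. The smallest unadjusted p was that of Chrm3 in cortical Vip-like cells, at -0.42 ± 0.16 (edgeR adjusted p = 0.925).

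Cells were split by at least 1 UMI of the reporter (wpre or tdtomato, both part of the Ai9 transcript), which 19.4% of the cortical glutamatergic and 18.9% of the striatal spiny-like neurons held. Microglia-like cells held one in 5.87% of cells in cortex and 5.51% in striatum, and astrocyte-like cells, at medians of 1696 and 1971 UMIs, in 25.1% and 27.5%. The share in these neurons was thus not above that in astrocyte-like cells, and whether a reporter UMI tells a cell active during labelling was not tested. Reporter-positive cells were also deeper, with medians of 9997 against 6875 UMIs in cortex and 4660 against 4204 UMIs in striatum, and the part of depth in these results was not tested. In cortical glutamatergic neurons 1 of 5 genes tested was called between reporter-positive and reporter-negative cells, where 7.31% of 16337 genes were called. Chrm2 was at 17.1 ± 5.24 CPM in positive and 20.7 ± 8.45 CPM in negative cells (SD, n = 6), a difference of -0.24 ± 0.07 on the log2 scale (edgeR adjusted p = 0.0195), and higher in positive cells in 1 of 6 pools. The near-projecting-like neurons, high in Chrm2, were 2.80% of the positive and 7.12% of the negative cells. Within that class Chrm2 was at 109 CPM in positive and 119 CPM in negative cells. It was lower in positive cells also in L2/3-like (8.38 against 11.7 CPM), L4/5 Rorb-like (16.5 against 19.7 CPM), L6b-like (19.2 against 20.6 CPM) and L6 corticothalamic-like cells (1.70 against 2.03 CPM), and higher in L6 intratelencephalic-like cells (45.6 against 38.6 CPM) and in glutamatergic cells of no named subclass (21.6 against 21.1 CPM). These values within classes were not tested. The call was lost with DESeq2 (adjusted p = 0.357), with at least 2 reporter UMIs (0.06, edgeR adjusted p = 0.896), and without early replicate 1 or late replicate 2 (edgeR adjusted p = 0.269 and 0.157). In striatal spiny-like neurons 0 of 4 genes were called (0 at an unadjusted p under 0.05), where 0.373% of 14464 genes were called.

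Levels of Chrm2 differed between the library classes in most cell classes. Of 12 classes with at least 5 CPM of Chrm2, both class A pools lay below all class B pools in 10, where this held for 26.5% of all 386027 pairs of a gene and a class at that level. The median ratio of B over A was 2.03 (0.989 to 4.52). For Slc5a7 it held in 2 of 7 classes, for Ache in 4 of 22, for Chrm3 in 4 of 13, for Chrm1 in 1 of 20 (cortical Pvalb-like cells), and for Chat and Slc18a3 in 0 of 2. The shares of Slc5a7, Ache and Chrm3 lie near that of all genes. Chrm1 had both class A pools above all class B pools in 5 of 20 classes, where 16.2% of all pairs did. Class A pools are 1 of the control and 1 of the late pools in each region, and no early pool. The class term in the model thus rests on control and late pools and takes the class difference as equal across stages. Within class B, 1 early pool of each region shares a batch label with the control pool. The other early pool and the late pool carry labels that no control pool has, so the term cannot separate stage from these batches.

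The wider cholinergic pathway was read from 4 lists: 16 nicotinic receptor subunits, 18 other acetylcholine-handling genes, 17 genes of Gq signalling and 18 genes of Gi/o signalling. These genes took part in the clustering, so their class differences are a description. In cholinergic-like cells against spiny-like neurons, 6 of 17 Gq genes were called higher and 9 lower (median -0.65, all genes -0.19, log2), and 10 of 17 Gi/o genes tested higher and 5 lower (median 0.74), where 67.2% of all genes were called. Of the other handling genes 6 of 13 were higher and 4 lower, and of 3 nicotinic subunits 1 was higher and 1 lower. Plcb4, a phospholipase C, was higher by 6.94 ± 0.10 and Gng2, a G-protein gamma subunit, by 7.53 ± 0.10. Itpr1, the IP3 receptor, was at -6.14 ± 0.15 and Rgs9, a striatal brake on Gi/o signalling, at -5.86 ± 0.13.

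Against the other striatal interneurons, 3 of 13 other handling genes tested were higher and 6 lower, 10 of 15 Gq genes higher and 4 lower, 7 of 18 Gi/o genes higher and 7 lower, and the 1 nicotinic subunit tested higher, where 52.6% of all genes were called. Prima1, which anchors acetylcholinesterase in the membrane, was higher in cholinergic-like cells by 8.47 ± 0.27 on the log2 scale, and Rgs6 by 6.03 ± 0.21. In D1-like against D2-like cells, 7 of 16 Gq genes tested were higher and 4 lower, and 7 of 16 Gi/o genes higher and 7 lower, where 27.1% of all genes were called. Of the other handling genes 6 of 12 were higher and 2 lower, and of 3 nicotinic subunits 1 was lower. Among the higher Gq genes was the protein kinase C gene Prkca (1.05 ± 0.04). In deep against upper cortical neurons 3 of 4 nicotinic subunits were higher and 1 lower, 3 of 11 other handling genes higher and 3 lower, 3 of 16 Gq genes higher and 8 lower, and 7 of 18 Gi/o genes higher and 6 lower, where 36.1% of all genes were called. Chrna4, the nicotinic alpha4 subunit, was higher by 4.23 ± 0.26. Between cortical glutamatergic and GABAergic cells, 12 of 16 Gq genes tested were higher in the glutamatergic cells and 1 lower (median 0.49, all genes -0.02), and 1 of 7 nicotinic subunits was higher and 6 lower. Of 18 Gi/o genes 7 were higher and 7 lower there, of 15 other handling genes 6 were higher and 7 lower, and 68.9% of all genes were called.

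By training stage, 0 genes of the 4 lists were called in either region. In each comparison 30 nicotinic, 160 handling, 226 Gq and 251 Gi/o gene and class pairs were tested in cortex, and 12, 134, 189 and 197 in striatum, where 0.0143% to 0.0726% of all pairs were called. Between hemispheres 1 of 149 Gi/o pairs in striatum was called and none of the other 3 lists or of the 4 in cortex, where 0.0245% of all striatal and 0.0230% of all cortical pairs were called. It was Adcy5 in astrocyte-like cells (1.75 ± 0.38, edgeR adjusted p = 0.0263). Reporter-positive striatal neurons had 2 of 16 Gq genes tested higher and none of the other lists called, where 0.373% of all genes were called. They were Rgs2 and Rgs4, higher by 0.18 ± 0.02 and 0.10 ± 0.02 (edgeR adjusted p = 3.56e-08 and 0.00254). In reporter-positive cortical neurons 2 of 16 Gq genes were higher and 2 lower, 1 of 18 Gi/o genes was higher, 1 of 5 nicotinic subunits was lower, and of 14 other handling genes 1 was higher and 1 lower, where 7.31% of all genes were called. The diacylglycerol kinase gene Dgkb was higher by 0.31 ± 0.03, Rgs2 by 0.19 ± 0.03 and Ly6h by 0.11 ± 0.02, while Chrna4 was at -0.29 ± 0.06 and Plcb4 at -0.13 ± 0.03.

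The genes whose class pattern was most like each of the 8 were found by Pearson's r over the mean log2(CPM + 1) of 44 classes, among 12335 genes. These classes share libraries, and r is given as a description. For Chat they were Slc18a3 (r = 0.99), Gm2990 (0.94) and Slc10a4 (0.94). Gm2990 lies on the opposite strand across the start of Chat (chr14:32465042-32483548, plus strand). Whether the counts used strand was not given in the sources used here. The gene models of Gm2990 and Chat overlap at their starts, and that of Slc18a3 lies inside Chat on the same strand. The part of shared reads in the likeness of Chat to either gene was not tested. For Slc18a3 they were Chat (0.99), Slc10a4 (0.94) and Gm2990 (0.92). Slc10a4 was among the markers that named the cholinergic-like class, where Chat and Slc18a3 were highest. For Slc5a7 the values were lower, with Slc18a3 (0.75), Chat (0.73) and Elfn1 (0.71). Chrm2 followed 9330158H04Rik (0.92), which overlaps its start on the other strand, Klhdc8a (0.83) and D630023F18Rik (0.82). Chrm3 followed Gm47411 (0.93), a transcript inside the gene on the same strand, Fam163b (0.88) and Slc35f4 (0.85). For Chrm4 they were also lower, with Jsrp1 (0.76), Acvr1c (0.70) and Ryr1 (0.68). Chrm1 followed Ddn (0.93), Egr4 (0.93) and Ensa (0.92), and Ache followed Srsf12, Vstm2a and Resp18 (0.92, 0.92 and 0.91).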

How the data were processed

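Motor cortex and dorsal striatum were profiled as single cells with a 3′ droplet method. The deposited matrices hold raw UMI counts per gene and cell, made by the authors with Cell Ranger 3.1.0 on GRCm38/mm10 per the submitters' processing notes, while the matrix headers name software version 3.0.2. Annotation, cell calling and strand were not given in the sources used here. Of 54235 features, 54165 matched GENCODE M21 by identifier. Libraries held 5.26045e+06 to 3.04706e+07 UMIs.

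Cells with at least 500 genes, at least 1000 UMIs and at most 20% mitochondrial UMIs were kept (103715), and the highest doublet scores, 0.8% per 1000 barcodes, were removed (5103). Clustering (scanpy 1.11.5, leidenalg 0.10.2) left out the 8 genes, the reporters, mitochondrial genes, Xist, Tsix and genes of chromosome Y. Clusters were named from marker lists. Counts were summed per pool and class and tested with edgeR 4.0.16 (quasi-likelihood, R 4.3.3), with Benjamini-Hochberg adjustment over all genes of a class and a threshold of 0.05. Stage fits had library class as a term and needed 20 cells per pool. Class, hemisphere and reporter fits had the pool as a block, and class fits needed 10 cells per pool. DESeq2 1.42.0, another scaling, no filter on low counts, stricter cells, kept doublets and left-out pools were alternatives. The code was checked on simulated counts.

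All 8 genes are named whatever their values. Pathway genes are named where called, at most 5 per comparison by adjusted p, and for likeness the 3 highest correlations. The genes, lists and comparisons were chosen with earlier results of these data known, and cluster naming rules were settled after the clusters were seen. Cells were not assigned to the mice of a pool, so the pool is the replicate. P-values of stage and region comparisons measure the spread between pools. Those of class, hemisphere and reporter fits, with the pool as a block, measure how differences within pools vary from pool to pool. Some genes of the marker and pathway lists are not reported here.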

Additional observations from a re-analysis of the deposited data

How the results depend on the processing

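Across the alternatives, 215 of the counts that answer a comparison stayed within 1.5 times the reported count, as in Vip-like cells, where DESeq2 called 5 genes and edgeR 6, and 8 moved further. With no filter on low counts, 1 gene and class pair was called in striatum early against control, Slc5a7 in oligodendrocyte-like cells (-4.83, edgeR adjusted p = 0.00340), where 0 were called with the filter, which that pair did not pass. The pair was named after its value was seen. DESeq2 called 3 of 5 genes in Sst-like against Pvalb-like cells, and 0 in reporter-positive against negative cortical neurons. A threshold of 2 reporter UMIs also gave 0 there, and leaving out 1 pool gave 0 to 2. Ranked by the share of cells with a UMI after thinning each cell to 1000 UMIs, 5 of 8 genes kept the class with their highest CPM. Chrm3 was then highest in L6b-like and Chrm4 in eccentric-like spiny cells, as by the share without thinning, and Chrm1 was highest in L4/5 Rorb-like cells only after thinning. Of the values for single genes, 726 kept both their sign and whether they passed the test, 15 no longer passed and 5 newly passed. Another 15 changed sign, none of them having passed the test except Chrm2 in reporter-positive cortical neurons. Sizes were not part of this count, and Chrm2 in deep against upper cortical neurons lay between -5.20 and -1.20.

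Sign changes by log2 difference were these. Ache in D1-like against D2-like cells was 0.00496 with doublets kept and, with 1 pool left out, between -0.0420 and 0.0113, above 0 without control replicate 1 (0.00364) or early replicate 2. Chrm1 there lay between -0.00902, without control replicate 2, and 0.0335. Chrm4 in cholinergic-like against spiny-like cells was 0.241 with DESeq2 and between -0.326 and 0.235, above 0 without early replicate 1. Chrm1 in Vip-like cells lay between -0.269 and 0.0215, above 0 without control replicate 2. In reporter-positive cortical neurons Ache lay between -0.0679 and 0.0407, above 0 without control replicate 2, and Chrm2 was 0.0586 at 2 reporter UMIs and between -0.285 and -0.176 with 1 pool left out. In reporter-positive striatal neurons Chrm3 was 0.0183 at 2 UMIs and between -0.224 and 0.0294, above 0 without early replicate 1. Chrm4 there was 0.00975 with doublets kept, 0.0863 at 2 UMIs and between -0.0379 and 0.0372, above 0 without control replicate 2 or late replicate 2. The cause was not tested.

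The replicate number was not taken to pair the pools. Same-numbered control and late pools, which share a library class, correlated in their deviations (r = 0.66 to 0.84 over genes). Control and early pools had r = -0.27 to -0.02, and early and late pools r = 0.28 and 0.40 in 2 cortical classes and -0.13 and -0.12 in 2 striatal ones. With the replicate number as a block in place of library class, 0 members were called in each stage comparison, as without it. Counts were few for Chrm4, with 256 UMIs in all D1-like and D2-like cells, and for the rarer classes, which hold few cells per pool. The part of depth in the Chrm4 count was not tested.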
